A study of Mus musculus with 38 samples.

Results

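Lysosomal proteases and their inhibitor were followed through the CD11b+ myeloid cells of mouse skin. The set was fixed by gene name: cathepsins B, C, D, H, K, L, S and Z (Ctsb, Ctsc, Ctsd, Ctsh, Ctsk, Ctsl, Ctss, Ctsz), legumain (Lgmn) and cystatin C (Cst3), 10 of the 19937 genes read on the array. Each of the 10 genes had 1 probe set, and all 10 entered every test. Their RNA was measured on 38 Affymetrix Gene ST arrays covering 13 sorted populations, and the deposited values are log2 intensities. A value is therefore a level on the log2 scale of 1 probe set, and levels are compared between populations for the same gene, never between genes. The question was how far the protease RNAs differ between the macrophages, monocyte-derived cells and dendritic cells (DC) of the dermis, their counterparts in the draining lymph node, and the same cells after the contact sensitiser DNFB (dinitrofluorobenzene).

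All mice were female wild-type C57BL/6 aged 6 weeks, and the DNFB groups had received 10 µl of 0.5% DNFB 3 days before harvest. From the lymph node came CD64+ cells after DNFB and migratory CD11b+ CD24- CD64- DC after DNFB and in steady state. From the dermis came the macrophage populations P5 (CD64+ Ly6C- CCR2- MHCII+) and P4 (the same but MHCII-), both in steady state. The dermis also gave CD24- CD64- MHCII+ DC after DNFB and in steady state, P3 (CD64+ Ly6Clow CCR2+ MHCII+) in steady state, and P2 (CD64+ Ly6Chi CCR2+ MHCII+) and P1 (CD64low Ly6Chi CCR2+ MHCII-) after DNFB and in steady state. Blood gave Ly6Chi monocytes in steady state. Each population had 3 arrays from independent pools of mice, except P1 after DNFB with 2. An array was made from 5000 to 10000 sorted cells, which gave 5 to 20 ng of RNA that was amplified, so no value belongs to a single mouse. The arrays were hybridised in 3 chip batches, and the labels do not say which array was in which, so batch and any difference cannot be told apart.

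Cathepsins are proteases of endosomes and lysosomes that are made as inactive precursors and mature as the compartment acidifies. Cathepsins B, L, S and K are cysteine endopeptidases, cathepsins C, H and Z are cysteine exopeptidases, cathepsin D is an aspartic endopeptidase, and legumain is a cysteine endopeptidase that cuts after asparagine and also processes other cathepsins. In antigen-presenting cells these enzymes break down proteins into peptides and trim the invariant chain from MHC class II, for which cathepsin S is the enzyme best known in DC and macrophages. Cystatin C is a secreted inhibitor of the papain-like cysteine cathepsins.

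The promoters of Ctsc, Ctsd, Ctsl and Lgmn, enzymes whose RNA was highest in the same macrophage population, are shown first, whether or not they hold the motifs searched. With them are those of Ctsk and Ctss, which are neighbouring protein-coding genes on chromosome 3 but had unlike patterns. Each is the 250 bases before a RefSeq start (GRCm38.p6), 5′ to 3′ on the strand of the gene. Capitals mark CACGTG, the E-box core read by the MITF and TFE family of lysosomal transcription factors, and GAGGAA or its reverse complement TTCCTC, a core read by the myeloid factor PU.1. RefSeq entries were matched for 8 of the 10 genes, giving 9 promoters, since Lgmn has more than 1 start. Ctsb and Ctsh had no entry in the table.
Ctsc, chr7:88277835-88278084, plus strand: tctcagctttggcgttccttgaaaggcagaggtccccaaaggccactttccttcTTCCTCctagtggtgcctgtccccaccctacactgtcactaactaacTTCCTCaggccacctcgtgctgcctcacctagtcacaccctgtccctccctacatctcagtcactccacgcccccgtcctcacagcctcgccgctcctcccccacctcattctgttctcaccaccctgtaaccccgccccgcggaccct
Ctsd, chr7:142387828-142388077, minus strand: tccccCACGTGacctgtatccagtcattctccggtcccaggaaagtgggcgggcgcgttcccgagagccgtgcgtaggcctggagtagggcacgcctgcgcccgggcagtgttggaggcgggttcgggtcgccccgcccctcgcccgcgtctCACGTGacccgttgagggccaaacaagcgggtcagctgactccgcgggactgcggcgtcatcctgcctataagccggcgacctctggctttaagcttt
Ctsl, chr13:64370521-64370770, minus strand: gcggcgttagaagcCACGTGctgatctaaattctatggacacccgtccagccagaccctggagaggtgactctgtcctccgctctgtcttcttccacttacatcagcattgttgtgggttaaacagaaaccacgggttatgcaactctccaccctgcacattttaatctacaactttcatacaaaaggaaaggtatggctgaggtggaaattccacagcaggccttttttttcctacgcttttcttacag
Lgmn, downstream start, chr12:102439093-102439342, minus strand: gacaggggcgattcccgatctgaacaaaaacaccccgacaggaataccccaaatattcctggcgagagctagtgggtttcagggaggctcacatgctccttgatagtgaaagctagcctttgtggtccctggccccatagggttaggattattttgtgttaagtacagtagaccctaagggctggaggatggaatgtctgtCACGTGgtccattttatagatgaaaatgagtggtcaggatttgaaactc
Lgmn, upstream start, chr12:102439729-102439978, minus strand: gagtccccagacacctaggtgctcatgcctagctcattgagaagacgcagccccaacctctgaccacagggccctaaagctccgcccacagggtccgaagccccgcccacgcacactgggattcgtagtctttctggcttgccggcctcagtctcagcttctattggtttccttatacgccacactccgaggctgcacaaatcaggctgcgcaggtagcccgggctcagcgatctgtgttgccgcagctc
Ctsk, chr3:95498960-95499209, plus strand: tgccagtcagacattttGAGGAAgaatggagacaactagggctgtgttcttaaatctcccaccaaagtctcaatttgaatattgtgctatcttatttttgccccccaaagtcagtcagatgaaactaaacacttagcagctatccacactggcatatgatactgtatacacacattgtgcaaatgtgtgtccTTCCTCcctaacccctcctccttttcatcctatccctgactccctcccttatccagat
Ctss, chr3:95526536-95526785, plus strand: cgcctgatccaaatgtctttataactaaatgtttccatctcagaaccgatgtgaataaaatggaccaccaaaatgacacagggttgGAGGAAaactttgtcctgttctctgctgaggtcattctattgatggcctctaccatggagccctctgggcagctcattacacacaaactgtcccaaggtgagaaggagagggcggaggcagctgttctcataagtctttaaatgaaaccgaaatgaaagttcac

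CACGTG, which reads the same on both strands, stood in the promoters of 3 of the 8 genes: 245 and 98 bases before the start of Ctsd, 236 bases before that of Ctsl and 49 bases before the downstream start of Lgmn. The promoters of Ctsc and of the upstream Lgmn start held none. Of all 32851 promoters in the table, 1978 (6.02%) held it. GAGGAA on either strand stood in those of Cst3, Ctsc, Ctsk and Ctss, and in 23.3% of all promoters. The motifs overlapped each other in 2 promoters of the whole table and in none of those shown. A match describes these letters only, and no binding was measured.

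Across the populations the 10 genes fell into wide and narrow patterns. Ctsl and Ctsk, the widest, spanned 4.96 and 4.49 log2 units between their highest and lowest population means, or 31.1-fold and 22.5-fold. Ctsd spanned 2.74 units, Lgmn 2.69, Ctsb 2.64 and Ctsc 2.37, and all 6 of these genes were highest in the P4 macrophages. Ctsh, with a span of 1.73, ran the other way and had its lowest mean in P4. Ctsz, with a span of 1.01, was highest in node CD64+ cells (11.01). Its lowest mean, 10.00 in P4, lay beside 10.01 in blood monocytes and 10.05 in steady-state dermal DC. Ctss and Cst3 were nearly level, with spans of 0.51 and 0.43 units, which are 1.43-fold and 1.35-fold. For scale, 98.6% of all genes had a smaller span than Ctsl, against 39.7% for Ctss and 32.4% for Cst3.

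**Figure D1:**
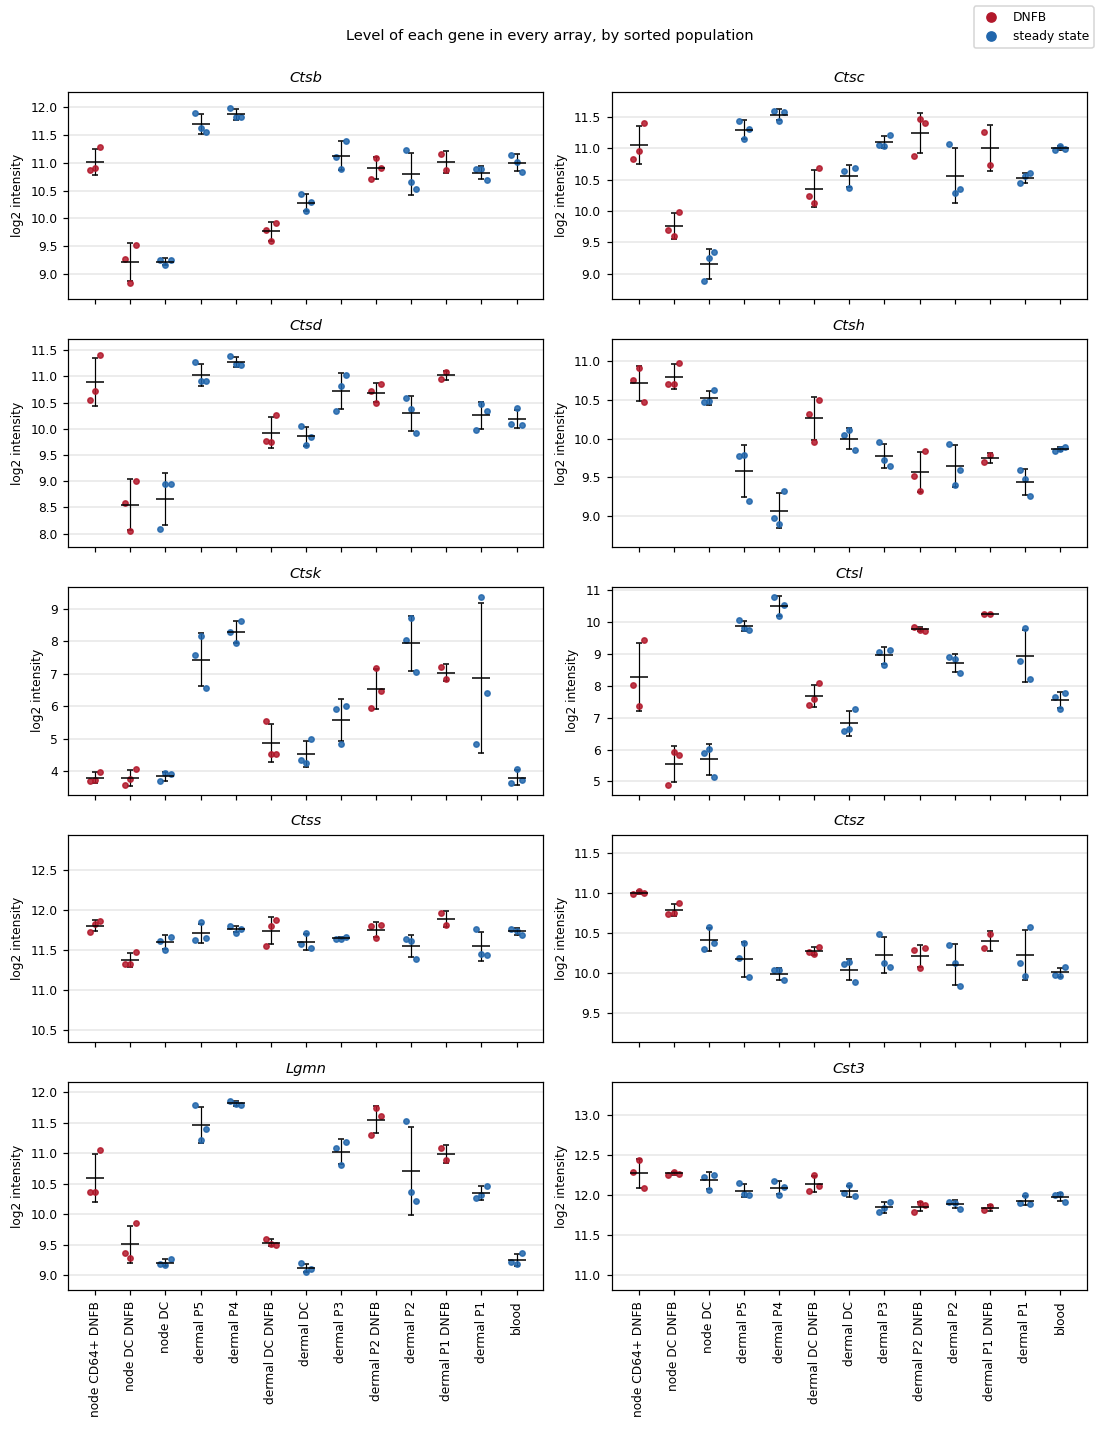
Level (log2 intensity) of each of the 10 genes in the 13 populations; points are arrays, the line is the mean and the bar the SD (n = 3, and 2 for P1 after DNFB). Ctsl and Ctsk span the widest range and Ctss and Cst3 the narrowest, and P4 macrophages hold the highest mean of 6 genes.

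In each gene's order of population means, the arrays of most neighbours overlapped. Of 12 pairs of neighbours in each gene's order, arrays did not overlap in 4 for Ctsb, 3 each for Ctsl and Lgmn, 2 each for Ctsc and Ctsz, 1 each for Ctsd and Ctsk, and 0 for Ctsh, Ctss and Cst3. The order was taken from these same means and the share over all genes was not counted, so the counts are a description only. P4 and P5 macrophages were neighbours at the top for Ctsb and Ctsc and overlapped there. For Ctsl the P4 arrays overlapped those of P1 after DNFB, the next population, while P1 after DNFB did not overlap P5. For Lgmn the 3 P4 arrays lay above every array of P2 after DNFB, the next population, by means of 11.82 ± 0.04 and 11.55 ± 0.22 (SD, n = 3 each).

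The labels were read against marker RNAs before the comparisons. Fcgr1, which encodes CD64, averaged 8.23 in node CD64+ cells, between 7.99 and 10.30 in P1 to P5, 9.39 in blood monocytes, 4.50 and 4.69 in node DC after DNFB and in steady state, and 7.98 and 5.94 in dermal DC after DNFB and in steady state. Flt3, a receptor of conventional DC, was 8.73 to 10.48 in the dermal and node DC and 9.60 in node CD64+ cells, and at most 7.66 elsewhere. Itgam, which encodes CD11b, averaged 4.74 and 4.62 in node DC after DNFB and in steady state but 8.65 to 10.81 in every other population, so the RNA of the marker that node DC were sorted on was low in them. The node CD64+ cells carry labels of a migratory monocyte in one field and of a DC in another, and they had both Mertk (7.57) and Ccr7 (10.92), genes of macrophages and of migrating DC. Within populations the correlation between arrays over all genes was 0.947 to 0.993. RNA of skin cells was present in the dermal sorts: the mean level of 14 keratinocyte genes was 5.30 to 8.19 in dermal arrays, 4.47 to 4.82 in node arrays and 4.35 to 4.53 in blood arrays.

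Dermal macrophages held more RNA of most of the degradative enzymes than dermal DC. Of the 10 genes, 6 rose and 1 fell in the mean of P4 and P5 against steady-state dermal DC, where 4.73% of all genes rose and 5.09% fell (limma, adjusted p under 0.05). Ctsb, Ctsc, Ctsd, Ctsk, Ctsl and Lgmn were the rises and Ctsh the fall. The median difference of the 10 genes was 1.08 log2 units, and that of all genes was -0.03. In sorted bulk samples, a larger share of cells with a given RNA and more of it per cell cannot be told apart.

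Legumain had the strongest statistical separation. Lgmn was 11.79, 11.21 and 11.39 in P5 and 11.86, 11.81 and 11.78 in P4, against 9.20, 9.06 and 9.11 in dermal DC. The macrophage arrays stood together above all DC arrays, with no overlap, by 2.52 log2 units (SE 0.19, 5.72-fold, adjusted p = 1.1e-10). Ctsl, an endopeptidase that also serves invariant chain processing in thymic epithelium, was 10.07, 9.80 and 9.76 in P5 and 10.80, 10.18 and 10.52 in P4, against 6.57, 6.64 and 7.28 in dermal DC. Here too every macrophage array was higher, by 3.36 units (SE 0.33, 10.3-fold, adjusted p = 9.9e-09).

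Ctsb, also an endopeptidase, was 11.89, 11.62 and 11.55 in P5 and 11.97, 11.81 and 11.81 in P4, against 10.43, 10.13 and 10.29 in dermal DC. The populations did not overlap, and the difference was 1.49 units (SE 0.15, 2.81-fold, adjusted p = 1.6e-08). Ctsd was 11.28, 10.91 and 10.92 in P5 and 11.39, 11.24 and 11.22 in P4, against 10.05, 9.69 and 9.84 in dermal DC, a rise of 1.30 units (SE 0.22, adjusted p = 6.7e-05). Ctsc, the dipeptidyl peptidase that activates granule serine proteases, was 0.85 units higher (SE 0.17, adjusted p = 0.00056), with 11.15 to 11.60 in the macrophage arrays and 10.36 to 10.68 in the DC arrays. These last 2 genes likewise had no shared values between macrophages and DC.

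Ctsk, best known as the collagen-cutting cathepsin of osteoclasts, was 7.58, 8.16 and 6.55 in P5 and 8.29, 7.96 and 8.63 in P4, against 4.34, 4.26 and 4.99 in dermal DC. The DC arrays lay near the median of all values on an array, and the difference was 3.33 units (SE 0.54, 10.1-fold, adjusted p = 5.5e-05). Skin fibroblasts also express Ctsk, and 4 of 12 fibroblast genes rose in the same comparison, with list means of 5.82 to 6.54 in macrophage arrays and 4.96 to 5.34 in DC arrays. With the mean levels of both skin lists entered as covariates, Ctsk was 2.45 units higher (SE 0.46, adjusted p = 0.00053), and the other 6 genes also passed in that fit. How much fibroblast RNA adds to the Ctsk difference was not tested.

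Ctsh, an aminopeptidase, was the member that ran against the rest. It was 9.77, 9.79 and 9.20 in P5 and 8.98, 8.90 and 9.33 in P4, against 10.04, 10.11 and 9.85 in dermal DC, a fall of 0.67 units (SE 0.15, 1.59-fold, adjusted p = 0.0019). Its highest macrophage array lay just under its lowest DC array. The remaining members did not pass: Ctss differed by 0.14 (95% interval -0.04 to 0.32), Ctsz by 0.04 (-0.21 to 0.29) and Cst3 by 0.03 (-0.13 to 0.18) log2 units. Mast cell and basophil genes had list means of 5.19 to 6.78 in the 3 P4 arrays, all above the 3.84 to 4.20 of the dermal DC arrays, and none of 6 genes passed. Their part in the differences was not tested.

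**Figure D2:**
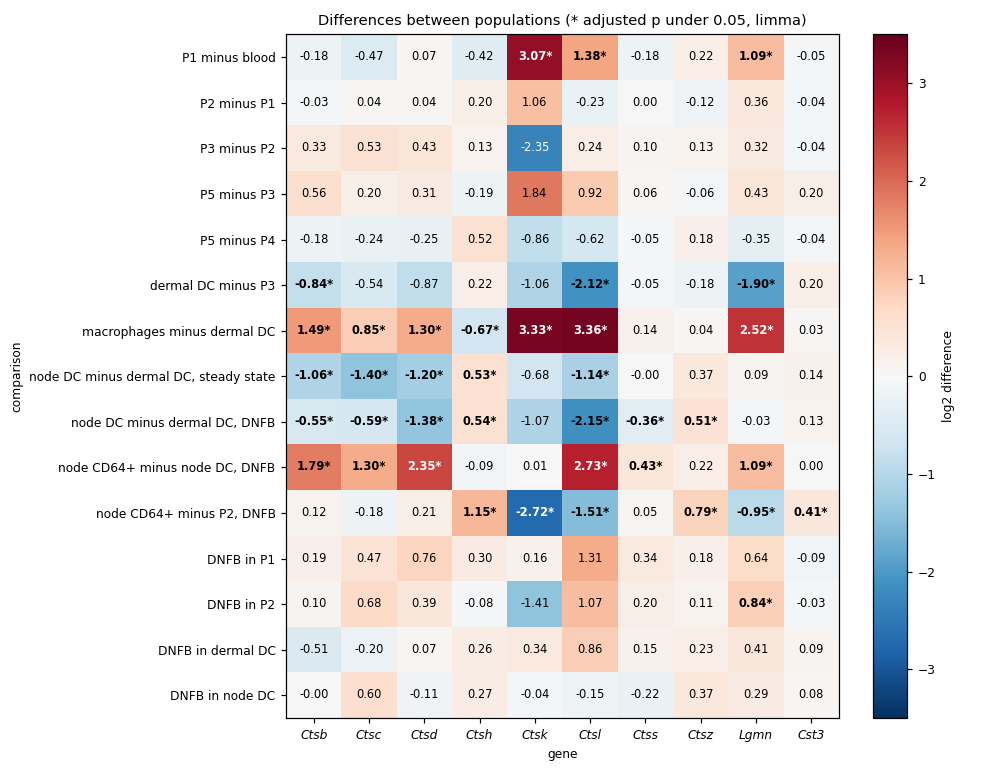
Log2 difference of each gene (columns) in each comparison of populations (rows); comparisons past an adjusted p of 0.05 are marked. Ctsb, Ctsc, Ctsd, Ctsl and Lgmn are positive in macrophages against dermal DC and in node CD64+ cells against node DC, and Ctsb, Ctsc, Ctsd and Ctsl are negative in node DC against dermal DC.

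Against P3, the CD64+ MHCII+ cells with low Ly6C, dermal DC were lower in 3 members and higher in none. Lgmn was 9.20, 9.06 and 9.11 in dermal DC, against 11.09, 10.80 and 11.19 in P3. The arrays stood far apart, and the fall was 1.90 log2 units (SE 0.22, 3.74-fold, adjusted p = 4.6e-06). Ctsl fell by 2.12 units (SE 0.38, 4.36-fold, adjusted p = 0.0011) and Ctsb by 0.84 (SE 0.17, 1.79-fold, adjusted p = 0.0046). With only these populations fitted, the Ctsb difference did not pass (adjusted p = 0.11). In this comparison 0.747% of all genes rose and 1.05% fell. Ctsd was 0.87 units lower and did not pass (adjusted p = 0.07), though it did without P3 replicate 1 (-1.06, adjusted p = 0.044).

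The steps between the CD64+ dermal populations moved no member past the threshold. P2 against P1 called 2.09% of all genes, P3 against P2 0.371%, P5 against P3 1.25% and P5 against P4 0.492%, and 0 of the 10 genes in each. Without P1 replicate 2, Ctsk was 2.31 units higher in P2 than in P1 and passed (adjusted p = 0.0048). Without P2 replicate 1, Ctsc passed in P3 against P2 (0.78, adjusted p = 0.048), as did Lgmn (0.73, adjusted p = 0.05). The largest differences were those of Ctsk, with no overlap of arrays in P3 against P2 or in P5 against P3. It was -2.35 in P3 against P2 (95% interval -3.63 to -1.06, adjusted p = 0.091), where 6 of 12 fibroblast genes fell. In P5 against P3 it was 1.84 (0.56 to 3.13, adjusted p = 0.21). Ctsb was 0.56 units higher in P5 than in P3 with no overlap of arrays (95% interval 0.21 to 0.91, adjusted p = 0.13), and Ctsl 0.92 units (0.15 to 1.70, adjusted p = 0.37). P5 and P4 differ in surface MHC class II, and Ctss, the class II associated cathepsin, differed between them by -0.05 units (95% interval -0.26 to 0.15).

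Dermal P1 cells were compared with blood monocytes, a separate sort from another tissue. Ctsk, Ctsl and Lgmn rose and no member fell, where 5.21% of all genes rose and 7.43% fell. Lgmn was 10.26, 10.31 and 10.47 in P1, against 9.22, 9.18 and 9.37 in blood monocytes. The arrays were tight and apart, and the rise was 1.09 log2 units (SE 0.22, 2.13-fold, adjusted p = 0.0011). Ctsl was 8.79, 9.82 and 8.21 in P1, against 7.64, 7.28 and 7.76 in blood, a rise of 1.38 units (SE 0.38, adjusted p = 0.014). Without replicate 2 of P1, the highest, the Ctsl difference was 0.94 and did not pass (adjusted p = 0.13), nor did it without replicate 2 of blood (1.24, adjusted p = 0.069).

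Ctsk was 4.85, 9.37 and 6.40 in P1, against 3.64, 4.06 and 3.73 in blood monocytes, where it was near the low-signal level of 4.02 (the 40th percentile of all values). The P1 arrays differed from each other by more than 4 log2 units, yet none overlapped blood, and the difference was 3.07 (SE 0.63, 8.37-fold, adjusted p = 0.0011). The same P1 arrays had fibroblast list means of 6.15, 9.70 and 6.92, in the same order as Ctsk, against 4.27 to 4.41 in blood. Without P1 replicate 2 the Ctsk difference was 1.82 (adjusted p = 0.012).

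In P1 against blood, 10 of 12 fibroblast genes and 11 of 14 keratinocyte genes rose as well. With both list means as covariates, none of the 3 differences passed: Ctsk was 0.51 (SE 0.96, adjusted p = 0.94), Ctsl 0.71 (SE 0.71, adjusted p = 0.84) and Lgmn 1.48 units (SE 0.46, adjusted p = 0.11). Ctsk and Ctsl were smaller than without the covariates and Lgmn larger, all with wider standard errors. Over all genes that fit called 180 rises and 112 falls, against 1038 and 1482 without the covariates. Both list means were higher in every P1 array than in every blood array, so skin RNA and tissue cannot be told apart. Over the 13 population means Ctsk correlated with the fibroblast list at r = 0.87, Ctsl at 0.69, Lgmn at 0.60 and Ctsh at -0.70, as a description of populations that share tissue and sort. In P2 the fibroblast list was 7.77 to 7.99 in steady state and Ctsk was 8.04, 8.73 and 7.04, while in P3 the list was 5.41 to 5.87 and Ctsk was 5.91, 4.85 and 6.01. In P4 and P5 macrophages the Ctsk means were 8.29 and 7.43 and the fibroblast list means 6.12 and 6.16.

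**Figure D3:**
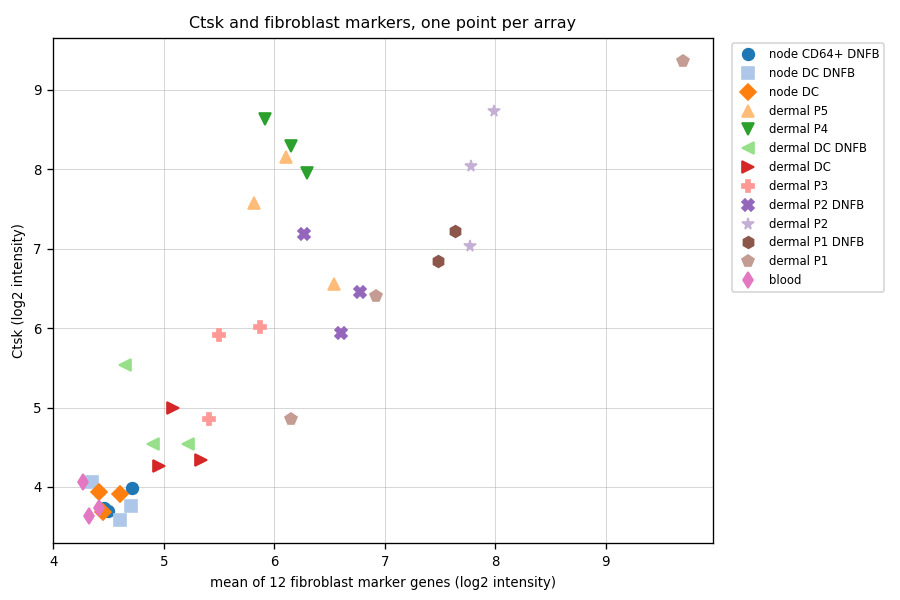
Ctsk level (log2 intensity) against the mean level of 12 fibroblast genes (log2 intensity) in each of the 38 arrays, marked by population. The P1 steady-state arrays run along the diagonal to the highest fibroblast value, 9.70, while P4 and P5 arrays reach Ctsk levels of 6.55 to 8.63 at fibroblast means of 5.82 to 6.54.

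Migratory DC of the lymph node held less Ctsb, Ctsc, Ctsd and Ctsl RNA than dermal DC in both conditions. Ctsh RNA was higher in them in both. Some settings or arrays left out lost the calls of Ctsh in both conditions, of Ctsb and Ctsc after DNFB, and of Ctsl in steady state. The Ctsd falls passed in every setting and without any single array in both conditions. In steady state 1 of the 10 genes rose and 4 fell, where 10.1% of all genes rose and 10.1% fell. The share of rises was thus about that of all genes. The median difference was -0.34 log2 units over the 10 genes and 0.05 over all genes. Ctsb was 9.26, 9.16 and 9.26 in node DC, against 10.43, 10.13 and 10.29 in dermal DC, a fall of 1.06 units (SE 0.17, 2.08-fold, adjusted p = 2.3e-05). Ctsc was 8.89, 9.25 and 9.34 in node DC, against 10.63, 10.36 and 10.68 in dermal DC, a fall of 1.40 (SE 0.19, 2.63-fold, adjusted p = 1.8e-06). For both genes every node array was below every dermal array.

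Ctsd was 8.08, 8.95 and 8.95 in node DC, against 10.05, 9.69 and 9.84 in dermal DC, a fall of 1.20 units (SE 0.25, adjusted p = 0.00051). Ctsl was 5.89, 6.03 and 5.14 in node DC, against 6.57, 6.64 and 7.28 in dermal DC, a fall of 1.14 (SE 0.38, adjusted p = 0.03). Ctsh was higher in node DC, at 10.47, 10.48 and 10.63 against 10.04, 10.11 and 9.85 in dermal DC, by 0.53 units (SE 0.17, 1.44-fold, adjusted p = 0.023). With array medians centred the Ctsh difference was 0.42 and did not pass (adjusted p = 0.15). The Ctsl and Ctsh calls were lost without replicate 3 of dermal DC or replicate 3 of node DC, which left differences of -0.87 at the smallest for Ctsl and 0.46 for Ctsh, and with the skin covariates, where Ctsl was -1.41 (adjusted p = 0.073) and Ctsh 0.07 (adjusted p = 0.88). In this comparison 6 of 7 monocyte and macrophage genes also fell, with list means of 4.76 to 5.16 in node DC arrays and 8.16 to 8.33 in dermal DC arrays, as did 11 of 14 keratinocyte genes and 1 of 12 fibroblast genes. The part of the monocyte and macrophage RNA in the differences was not tested.

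After DNFB the node against dermal comparison had 2 rises and 5 falls among the 10 genes, with 8.44% of all genes rising and 9.04% falling. Ctsl was 4.88, 5.91 and 5.84 in node DC, against 7.40, 7.58 and 8.08 in dermal DC. All node arrays were far below the dermal ones, by 2.15 units (SE 0.38, 4.43-fold, adjusted p = 7.4e-05). Ctsd was 8.59, 8.04 and 9.01 in node DC, against 9.76, 9.75 and 10.27 in dermal DC, a fall of 1.38 (SE 0.25, 2.60-fold, adjusted p = 0.0001). Ctsz, a carboxypeptidase, was 10.74, 10.75 and 10.88 in node DC, against 10.26, 10.24 and 10.33 in dermal DC, a tight and separate rise of 0.51 units (SE 0.14, 1.43-fold, adjusted p = 0.008). With the skin covariates it was 0.38 and did not pass (adjusted p = 0.11).

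The other calls after DNFB were smaller. Ctsb fell by 0.55 (SE 0.17, adjusted p = 0.024), Ctsc by 0.59 (SE 0.19, adjusted p = 0.03) and Ctss by 0.36 (SE 0.10, adjusted p = 0.0094), and Ctsh rose by 0.54 (SE 0.17, adjusted p = 0.023), which was 0.28 with the skin covariates (adjusted p = 0.35). Beside them 6 of 7 monocyte and macrophage genes fell, with list means of 4.58 to 5.23 in node DC arrays and 7.95 to 8.39 in dermal DC arrays, as did 5 of 14 keratinocyte genes, 1 of 12 fibroblast genes and 3 of 4 T cell genes, and the part of the macrophage and T cell RNA was not tested. Without dermal DC replicate 3 the members called were 4 instead of 7. With array medians centred, Ctsb (-0.57, adjusted p = 0.063), Ctsc (-0.61, adjusted p = 0.061) and Ctsh (0.52, adjusted p = 0.075) did not pass. Leaving out single arrays moved Ctsb between -0.70 and -0.36, Ctsc between -0.71 and -0.42, Ctsh between 0.39 and 0.66 and Ctss between -0.46 and -0.29. The Ctsb call was lost without dermal DC replicate 1 or 3 or node DC replicate 2, that of Ctsc without dermal DC replicate 3 or node DC replicate 1 or 2, that of Ctsh without dermal DC replicate 2 or node DC replicate 3, and that of Ctss without dermal DC replicate 3. Lgmn did not differ past the threshold between node and dermal DC in either condition, and it was low in both, at 9.37, 9.29 and 9.86 in node DC and 9.60, 9.52 and 9.49 in dermal DC after DNFB. In steady state Lgmn was 9.19, 9.17 and 9.27 in node DC, against 9.20, 9.06 and 9.11 in dermal DC.

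**Figure D4:**
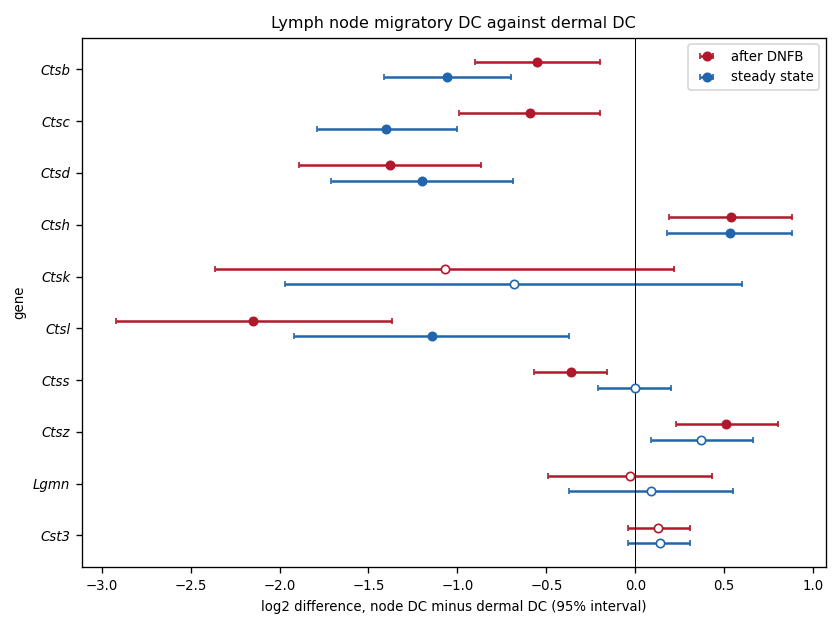
Log2 difference of node DC minus dermal DC for the 10 genes, with its confidence interval, after DNFB and in steady state. Filled points passed an adjusted p of 0.05 and open points did not. Ctsb, Ctsc, Ctsd and Ctsl lie below 0 and Ctsh above 0 in both conditions.

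The node CD64+ cells, seen after DNFB only, were set against node DC of the same condition. In this comparison 6 of the 10 genes rose and none fell, where 3.82% of all genes rose and 1.00% fell, and the median difference was 0.76 log2 units against -0.07 for all genes. Ctsd was 10.55, 10.72 and 11.41 in node CD64+ cells, against 8.59, 8.04 and 9.01 in node DC, a rise of 2.35 units (SE 0.25, 5.09-fold, adjusted p = 5.4e-08). Ctsb was 10.86, 10.91 and 11.28 in node CD64+ cells, against 9.28, 8.85 and 9.53 in node DC, a rise of 1.79 (SE 0.17, 3.46-fold, adjusted p = 9e-09). Both genes kept a wide gap between the nearest arrays of the 2 populations.

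Ctsl was 8.02, 7.36 and 9.43 in node CD64+ cells, against 4.88, 5.91 and 5.84 in node DC, and rose by 2.73 units (SE 0.38, 6.63-fold, adjusted p = 6.7e-06). The CD64+ arrays spread over about 2 units, with replicate 3 the highest, as it was for Ctsb, Ctsc, Ctsd and Lgmn. Ctsc rose by 1.30 (SE 0.19, adjusted p = 2.2e-05), with 10.82, 10.95 and 11.40 in node CD64+ cells, against 9.69, 9.60 and 9.99 in node DC. Lgmn rose by 1.09 (SE 0.22, adjusted p = 0.0017), with 10.37, 10.37 and 11.05 in node CD64+ cells, against 9.37, 9.29 and 9.86 in node DC. Ctss rose by 0.43 (SE 0.10, adjusted p = 0.0068), and without CD64+ replicate 3 that call was lost, with differences of 0.40 to 0.48 over the arrays left out. With only these populations fitted, Ctss (adjusted p = 0.11) and Lgmn (adjusted p = 0.051) did not pass. No keratinocyte or fibroblast gene of the lists passed in this comparison, while all 7 monocyte and macrophage genes rose.

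Against dermal P2 after DNFB, the node CD64+ cells were higher in Ctsh, Ctsz and Cst3 and lower in Ctsk, Ctsl and Lgmn, while 7.26% of all genes rose and 5.37% fell. Ctsh was 10.76, 10.91 and 10.47 in node CD64+ cells, against 9.52, 9.33 and 9.84 in P2, a rise of 1.15 units (SE 0.17, 2.21-fold, adjusted p = 8.3e-06). Ctsz was 10.99, 11.03 and 11.01 in node CD64+ cells, against 10.29, 10.06 and 10.31 in P2, a rise of 0.79 (SE 0.14, adjusted p = 0.00011). Cst3 was 12.29, 12.44 and 12.09 in node CD64+ cells, against 11.79, 11.90 and 11.88 in P2, a rise of 0.41 (SE 0.09, adjusted p = 0.0008). In these 3 genes the node arrays were all above the P2 arrays.

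Ctsk fell to 3.70, 3.74 and 3.99 in node CD64+ cells, at or under the low-signal level, against 5.94, 7.19 and 6.46 in P2, a difference of -2.72 (SE 0.63, adjusted p = 0.0026). Ctsl was 8.02, 7.36 and 9.43 in node CD64+ cells, against 9.85, 9.76 and 9.72 in P2, a difference of -1.51 (SE 0.38, adjusted p = 0.0056) that was -1.05 and did not pass without CD64+ replicate 2. Lgmn was 10.37, 10.37 and 11.05 in node CD64+ cells, against 11.30, 11.74 and 11.60 in P2, a difference of -0.95 (SE 0.22, adjusted p = 0.0029). All 3 genes were lower in every node array than in every P2 array. In the same comparison 9 of 14 keratinocyte genes and 5 of 12 fibroblast genes fell, and with both list means as covariates 1 of the 6 calls, that of Lgmn (-1.25, adjusted p = 0.024), remained. In that fit the differences were 0.39 for Cst3 (adjusted p = 0.088), 0.73 for Ctsh (adjusted p = 0.068), 0.48 for Ctsz (adjusted p = 0.21), -1.18 for Ctsl (adjusted p = 0.24) and -1.26 for Ctsk (adjusted p = 0.39), with larger standard errors than before. Of the myeloid markers, 5 of 6 conventional DC genes rose in node CD64+ cells, and 4 of 7 monocyte and macrophage genes fell and 1 rose. Their part was not tested.

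DNFB itself moved 1 member past the threshold in 1 of 4 populations. Lgmn was 11.30, 11.74 and 11.60 in P2 after DNFB, against 11.53, 10.37 and 10.22 in steady state. One steady-state array lay among the DNFB arrays, and the rise was 0.84 units (SE 0.22, 1.79-fold, adjusted p = 0.04), where 1.02% of all genes rose and 0.998% fell. The call was lost without steady-state replicate 2 or 3 or without DNFB replicate 2 or 3, where the difference was 0.60 to 0.82. Ctsc in P2 was 0.68 units higher and did not pass (adjusted p = 0.066), but it passed without steady-state replicate 1 (0.93, adjusted p = 0.0078) or DNFB replicate 1 (0.86, adjusted p = 0.019). In P1, dermal DC and node DC, 0 of the 10 genes passed, against 0.637%, 4.16% and 1.34% of all genes.

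Ctsl did not pass in any of the 4 populations, although its DNFB arrays lay above the steady-state arrays in each of the 3 dermal ones. It was 10.26 and 10.24 in P1 after DNFB, against 8.79, 9.82 and 8.21 in steady state, a difference of 1.31 (95% interval 0.44 to 2.17, adjusted p = 0.19). In P2 it was 9.85, 9.76 and 9.72 after DNFB, against 8.91, 8.83 and 8.40 in steady state, a difference of 1.07 (0.29 to 1.84, adjusted p = 0.18). In dermal DC the difference was 0.86 (0.08 to 1.63, adjusted p = 0.28) and in node DC -0.15 (-0.92 to 0.63, adjusted p = 1). Without P1 steady-state replicate 2, which had the most fibroblast RNA, Ctsl in P1 was 1.75 units higher and passed (adjusted p = 0.044).

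The difference between DNFB effects was also tested, and no member passed in it, except Ctsc in dermal DC against P2 once P2 steady-state replicate 1 was left out (-1.13, adjusted p = 0.047). P2 against P1 called 0.0552% of all genes, dermal DC against P2 0.251% and node DC against dermal DC 1.31%. Ctsb in dermal DC was 9.80, 9.59 and 9.92 after DNFB, against 10.43, 10.13 and 10.29 in steady state, a separate but not significant difference of -0.51 (95% interval -0.86 to -0.16, adjusted p = 0.1). Cst3 differed by at most 0.09 units in size in all 4 populations, with 95% intervals inside -0.28 to 0.26.

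The members' patterns over the 13 population means were described by Pearson's r, over points that share tissue and sort gates. Ctsc and Ctsd had r = 0.94, Ctsb and Ctsd 0.94, Ctsb and Ctsc 0.93, Ctsd and Ctsl 0.93, and Ctsl and Lgmn 0.90. Ctsh ran with Ctsz (0.79) and Cst3 (0.71) and against Ctsk (-0.85) and Ctsl (-0.80). The chromosomal neighbours Ctsk and Ctss had r = 0.22. Among 7340 genes that span at least 1 log2 unit, those most like Ctsb were Grn (0.971), Apoe (0.968) and Cln3 (0.968), and those most like Ctsd were Clec5a (0.972), Tlr4 (0.952) and Cmklr1 (0.948). Cln3 was also near Ctsc (0.956), after Snx2 (0.959) and P2rx7 (0.957). Lgmn was most like Atp6v1c1 (0.936), a V-ATPase subunit gene, and Ctsl most like C5ar1 (0.945).

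Ctsk was most like Gpnmb (0.952), Lamc1 (0.951) and Serpinb5 (0.936), of which Serpinb5 was low, with population means of 3.19 to 5.19. Ctsh was most like Kynu (0.967), Gfpt1 (0.966) and Ola1 (0.962). The nearest genes to Ctsz were Colq (0.935), Rai14 (0.919) and Gbp11 (0.918), and to Cst3 Cmc2 (0.947), Gpr183 (0.916) and Ints4 (0.905). Ctss had no close match, with Vav1 at 0.833 first.

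Other genes of the same machinery were read in lists. Of 6 other cathepsins, 2 rose and none fell in macrophages against dermal DC: the carboxypeptidase Ctsa by 0.83 (SE 0.13, adjusted p = 1.6e-05) and Ctsf by 1.55 (SE 0.25, adjusted p = 4.8e-05). Ctsa fell in node DC by 0.92 in steady state (adjusted p = 1.5e-05) and by 1.53 after DNFB (adjusted p = 2.1e-09), and rose by 1.47 in node CD64+ cells against node DC (adjusted p = 1.3e-08). It passed in the directions of Ctsb, Ctsc and Ctsd in all 4 comparisons. The placental cathepsins Cts6, Cts7, Cts8, Ctsj, Ctsq and Ctsr, which serve as a yardstick of low signal, had population means of 2.68 to 3.83, and none of the 6 passed in macrophages against dermal DC.

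Of 8 other lysosomal proteases and helpers, 2 rose and 3 fell in macrophages against dermal DC. The tripeptidyl peptidase gene Tpp1 rose by 2.11 (SE 0.27, adjusted p = 9.6e-07), and the aspartic protease gene Napsa fell to a mean of 7.23 in macrophages, against 10.25 in dermal DC (-3.02, SE 0.20, adjusted p = 5.1e-12). Ifi30, the thiol reductase GILT that opens disulfide bonds of antigens, fell by 0.64 (adjusted p = 0.00039). Napsa was also lower in node DC than in dermal DC, by 2.15 in steady state (adjusted p = 1.7e-08) and by 2.60 after DNFB (adjusted p = 4.8e-10).

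Of the 4 lysosomal transcription factor genes, 3 rose in macrophages against dermal DC: Tfec by 3.89 (SE 0.42, adjusted p = 5.7e-08), Mitf by 1.50 (SE 0.28, adjusted p = 0.00027) and Tfe3 by 0.60 (SE 0.19, adjusted p = 0.042). Tfec and Mitf also rose in node CD64+ cells against node DC, by 3.49 (adjusted p = 6.5e-06) and 1.34 (adjusted p = 0.008). Of 6 lysosomal enzyme sorting genes, Gnptab, which builds the mannose 6-phosphate tag, rose by 0.83 in macrophages (adjusted p = 0.0037) and the sortilin relative Sorl1 fell by 1.32 (adjusted p = 1.5e-07). All 5 measured partners of class II loading fell in macrophages, of which P4 was sorted as MHCII-.

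Among inhibitors other than cystatin C, 1 of 8 measured genes passed for DNFB in dermal DC. That gene, Cst7, encodes cystatin F, an endolysosomal inhibitor of cathepsin C and other cysteine cathepsins, and it was 9.04 to 9.52 after DNFB and 4.53 to 6.94 in steady state. The rise was 3.41 units (SE 0.54, 10.6-fold, adjusted p = 0.00013), with no overlap. In the same comparison 2 of 4 T cell genes rose and 1 fell, and 0 of 4 NK cell genes passed. T cell list means were 5.18 to 5.79 in dermal DC arrays after DNFB and 4.76 to 5.53 in steady state. The part of T cell RNA in the Cst7 rise was not tested. In node DC Cst7 averaged 6.61 after DNFB and 4.68 in steady state and did not pass (1.93, adjusted p = 0.08), and the difference between these DNFB effects was not past the threshold either (-1.47, adjusted p = 0.56). In P1 after DNFB, 3 stefin genes rose, led by Stfa3 with means of 7.02 after DNFB and 4.12 in steady state (adjusted p = 0.019). The stefin A genes are near-identical copies, so their probe sets may read each other's RNA. Of 8 neutrophil genes 1 also rose in P1, with list means of 4.57 to 5.28 after DNFB and 4.29 to 4.49 in steady state. The part of neutrophil RNA in the stefin rises was not tested.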

How the data were processed

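The deposited values are log2 intensities, made by the authors, who used RMA from affy according to the submitters' processing notes (versions not given in the sources used here), as recorded per the labels. They run from 1.65 to 13.8, with array medians of 4.39 to 4.65, and were used as deposited. Their number of arrays limits the precision. The array holds 34760 probe sets. Those naming exactly 1 gene (21640) were used, of which 21553 had a RefSeq match by identifier, while 1321 naming several genes and 11799 naming none were dropped. For 954 genes with more than 1 probe set, that with the highest mean was used, leaving 19937 genes.

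A model with 13 group means over all 38 arrays was fitted in limma 3.58.1 (R 4.3.3, tables read by data.table, version 1.17.8) by lmFit and eBayes, with 25 residual and 3.13 prior degrees of freedom. P-values in each of 18 comparisons were adjusted by Benjamini-Hochberg over 19937 genes, and an adjusted p under 0.05 passed. A permutation of 3 against 3 arrays cannot pass, so these p-values rest on the pooled variance. The members, gene lists and markers were chosen with earlier results of these data known. A difference is given for each member that passed, and for any other one named. Up to 3 genes per list and comparison are named by smallest adjusted p, and the 3 genes with the highest r to a member. Cts3, Ctsm, Stfa1, Stfa2l1, M6pr, H2-DMb1 and H2-DMb2 are not analysed here. Promoters are from RefSeq (GRCm38.p6). Promoters were searched and figures made in Python 3.11.15 (matplotlib 3.10.9).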

Additional observations from a re-analysis of the deposited data

How the results depend on the processing

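Of 180 pairs of a member and a comparison, 38 passed, 19 of these passed in all 10 other settings and without any single array, and 0 reversed in any fit. With keratinocyte and fibroblast means as covariates the members called were 0 of 3 in P1 against blood, 3 of 5 in node against dermal DC in steady state, 5 of 7 after DNFB, 1 of 6 in node CD64+ cells against P2 and 0 of 1 for DNFB in P2. With only the compared groups fitted they were 1 in P1 against blood, 4 in node against dermal DC after DNFB (3 of the 7, and Ctsk at -1.07), 2 of 3 in dermal DC against P3 without Ctsb, 4 of 6 in node CD64+ cells against node DC without Ctss and Lgmn, 4 of 6 against P2 without Ctsl and Cst3, and 0 for DNFB in P2, with fewer arrays behind the variance. With array medians centred they were 4 in node against dermal DC after DNFB and 0 for DNFB in P2. A floor of 2-fold left 2 in node against dermal DC after DNFB, 3 in node CD64+ cells against P2 and 0 for DNFB in P2. Array weights gave 2 for DNFB in P2, 1 for DNFB in dermal DC (Ctsb, -0.50), 1 for DNFB in node DC (Ctsc, 0.58) and 1 in P3 against P2 (Ctsk, -2.58), and quantile normalization gave 2 for DNFB in P2. The cause of these changes was otherwise not tested.

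Without single arrays the count of members called ran from 2 to 3 in P1 against blood, 0 to 1 in P2 against P1, 0 to 2 in P3 against P2, 3 to 4 in dermal DC against P3, 3 to 5 in node against dermal DC in steady state, 4 to 6 after DNFB, 5 to 6 in node CD64+ cells against node DC and 5 to 6 against P2. It ran from 0 to 1 for DNFB in P1, 0 to 2 for DNFB in P2 and 0 to 1 for the DNFB effect in dermal DC against P2. It stayed at 7 to 7 in macrophages against dermal DC and at 0 to 0 in P5 against P3, P5 against P4, DNFB in dermal DC and in node DC, and the other differences of DNFB effects. Arrays with the same title replicate number in different groups deviated with correlations of -0.30 to 0.35 (median 0.00), and those with different numbers of -0.45 to 0.34. For arrays with the same number in the source name they were -0.22 to 0.35 (median 0.01). These values show no clear pairing by either number but cannot exclude a shared origin of arrays. A block of title replicate numbers gave 2 for DNFB in P2 by adding Ctsc (0.68, adjusted p = 0.048). Low signal limits Ctsk in node and blood cells, and how far this alters its fold changes was not tested.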

Other observations

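DNFB also moved other genes of the lysosomal protease system. In dermal DC, Ctse, an endosomal aspartic protease, rose by 1.26 log2 units (SE 0.34, adjusted p = 0.026), with means of 6.01 after DNFB and 4.75 in steady state. Ifi30 rose there by 0.72 (SE 0.14, adjusted p = 0.0014), with means of 12.04 after DNFB and 11.32 in steady state. Psap, which encodes the precursor of the saposins, averaged 10.98 after DNFB and 11.73 in steady state and fell by 0.75 (SE 0.14, adjusted p = 0.00074). It also fell by 0.53 in node DC (SE 0.14, adjusted p = 0.045).

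The sorting receptor gene Sort1 rose in node DC after DNFB by 1.18 (SE 0.26, adjusted p = 0.012), with means of 7.03 after DNFB and 5.85 in steady state. Sorl1 rose in P2 by 1.05 (SE 0.17, adjusted p = 0.00054). H2-DMa, a chain of the class II peptide exchange factor, rose in node DC by 1.35 (SE 0.19, adjusted p = 5e-05) and differed by -0.08 in dermal DC, and the difference between these DNFB effects passed (1.43, SE 0.26, adjusted p = 0.0024). Other class II loading partners did rise in dermal DC. Of the 5 measured, 2 rose with DNFB in dermal DC (median 0.81) and 2 in node DC (median 1.25). The difference between these effects called 1 of the 5, with a median of -0.02.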
